A study of Mus musculus with 39 samples.

Results

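The genes described here are 10 ERK feedback regulators, *Dusp4*, *Dusp6*, *Spry1*, *Spry2*, *Spry4*, *Spred1*, *Spred2*, *Etv4*, *Etv5* and *Rps6ka2*, read by symbol from both deposited count matrices, in which each has 1 row among 47643 genes. They were chosen by their role in the pathway and selected on their measured *Stat3* null against wild-type (WT) differences at E6.5 and E7.5 and the change between these stages. Values of the 10 genes from those contrasts, and from the WT libraries that enter them, are therefore a description. No p-value of a member is printed for them, and where members pass the threshold their count stands beside the share of all genes only to describe it, with nothing read from it. Other genes of the pathway are given with their adjusted p. Their lists were also chosen with earlier results of these data known, so these values too describe the genes. Their calls were not checked by leaving out single libraries. Tests are given for E5.5 null against WT and for the cell lines, which the choice of genes did not use.

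FGF signalling through the kinases MEK and ERK drives the post-implantation epiblast, the pluripotent tissue that forms the embryo proper, towards lineage commitment. ERK activity switches on its own inhibitors, so the RNA of these genes is widely read as a trace of recent ERK signalling. The dual-specificity phosphatases DUSP6, in the cytoplasm, and DUSP4, in the nucleus, remove phosphate from ERK. Sprouty (*Spry*) and Spred proteins restrain the pathway between receptor and Raf. *Etv4* and *Etv5* encode ETS transcription factors that act downstream of FGF, and *Rps6ka2* encodes a ribosomal S6 kinase (RSK) that ERK activates.

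Each of 35 epiblast libraries held the RNA of 1 epiblast from an intercross of *Stat3* heterozygous CD1 mice. The epiblasts were dissected manually to remove extraembryonic ectoderm and visceral endoderm, and the genotype was read by PCR from extraembryonic tissue. Marker RNA of these tissues was still present in many libraries, with the values given by stage below. The null groups held 4 epiblasts at E5.5, 8 at E6.5 and 3 at E7.5, and the WT groups 2, 9 and 9 in the same order of stages. In the null allele some exons of *Stat3* are replaced by a neomycin resistance cassette. Epiblast stem cells (EpiSCs), cultured lines of the primed epiblast kept in FGF2, activin A and the tankyrase inhibitor XAV-939, came from null lines 2 and 6 and WT lines 8 and 13, with 1 library a line. In bulk RNA, fewer cells of a type and less RNA per cell cannot be told apart.

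*Stat3* itself, counted over the whole gene and so also over exons outside the replaced part, was at 9.47 to 22.6 CPM (read counts scaled to the library total) in E5.5 null and at 38.6 and 51.1 CPM in E5.5 WT epiblasts. It lay at 1.42 to 7.99 against 5.62 to 28.6 CPM at E6.5, at 1.24 to 1.5 against 4.69 to 24.7 CPM at E7.5, and at 3.15 and 3.50 against 18.2 and 22.8 CPM in EpiSCs. Total counts lay between 22941210 and 79013960 per epiblast library and between 63445877 and 127583699 per EpiSC library. Libraries 1 to 3 of each genotype at E6.5 had over 40000000 counts and the others of that stage fewer. E5.5 null 1 had the epiblast factor *Pou5f1* at 0.673 CPM, while the others of its stage had 100.3 CPM or more, which goes against an epiblast. E6.5 null 1 had the highest summed level of 10 extraembryonic ectoderm markers at its stage, 1583 CPM against 103 to 570 CPM in the other 16. E7.5 WT 3 had *Pou5f1* at 608 CPM against 156 to 440 CPM in the other 8 WT epiblasts of E7.5.

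Upstream sequence from the RefSeq promoter table is shown for *Dusp6* and *Spry2*, called for the change of genotype effect, and for *Rps6ka2*, the gene whose E6.5 groups did not overlap. In GRCm38, *Dusp6* (ENSMUSG00000019960.7) lies at chr10:99263231-99267489, *Spry2* (ENSMUSG00000022114.4) at chr14:105891947-105896819, *Rps6ka2* (ENSMUSG00000023809.9) at chr17:7170115-7303315 and *Etv5* (ENSMUSG00000013089.15) at chr16:22381309-22439719. Antisense genes overlap *Spry1* and *Spry4*, and since the strand setting of the counting is not given in the sources used here, reads of those partners cannot be told apart from theirs. Each sequence is the 150 bases before the annotated start in GRCm38.p6, 5′ to 3′ on the strand of the gene. The *Dusp6* stretch is chr10:99263081-99263230 on the plus strand, that of *Spry2* is chr14:105896820-105896969 on the minus strand, and that of *Rps6ka2* is chr17:7169965-7170114 on the plus strand. Capitals mark the 5-letter ETS core GGAAG and the CCAAT box, CCAAT, on either strand.

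Dusp6: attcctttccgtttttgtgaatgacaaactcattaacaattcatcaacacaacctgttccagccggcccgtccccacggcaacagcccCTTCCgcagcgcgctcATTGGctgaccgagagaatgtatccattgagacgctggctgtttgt
Spry2: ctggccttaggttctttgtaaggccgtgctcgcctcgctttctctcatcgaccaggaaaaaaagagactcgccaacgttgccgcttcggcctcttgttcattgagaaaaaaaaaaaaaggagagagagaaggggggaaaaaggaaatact
Rps6ka2: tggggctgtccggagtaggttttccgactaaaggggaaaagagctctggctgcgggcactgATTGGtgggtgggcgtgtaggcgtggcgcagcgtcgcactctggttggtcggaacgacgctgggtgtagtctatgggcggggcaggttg

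Promoters of 7 of the 10 genes (*Dusp6*, *Spry1*, *Spry2*, *Spred1*, *Spred2*, *Etv5* and *Rps6ka2*) were searched, over the 250 bases before each start on both strands. Promoters on chromosome 18, where *Spry4* lies, were left out of the search. The short core GGAAG was present for 4 of these 7 genes, against 64.1% of 32851 promoters, and CCAAT for 4 of 7, against 33.8%. The longer ETS letters CCGGAA (12% of all promoters), the STAT letters TTCNNNGAA (7.02%) and the AP-1 letters TGANTCA (6.75%) were in none of the 7. A match or its absence describes these letters in this window only.

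In WT epiblasts at E6.5 the levels per kilobase of exon ran from *Etv5* down to *Spred1*. *Etv5* stood at 71.3 ± 6.69 CPM per kilobase (SD, n = 9), above every other member. *Spry2* at 33.0 ± 4.93 and *Dusp6* at 29.5 ± 2.87 CPM per kilobase came next and differed by less than their spread. *Dusp4* (23.4 ± 9.70), *Spred2* (21.8 ± 2.71) and *Spry4* (20.4 ± 4.76 CPM per kilobase) likewise lay within each other's spread. *Spry1* (13.5 ± 2.24), *Rps6ka2* (12.2 ± 1.87) and *Etv4* (11.2 ± 1.5) formed the next group, and *Spred1* was the lowest at 7.73 ± 1.97 CPM per kilobase. At E7.5 the WT order was different, with *Dusp4* first at 25.5 ± 8.82 and *Etv5* at 22.7 ± 15.4 CPM per kilobase, whose spreads overlap. In WT EpiSCs *Dusp6* led at 198 ± 24.2 CPM per kilobase (SD, n = 2), and *Spry1* was last at 3.56 ± 0.483. EpiSC and epiblast counts come from separate tables and kits, so their levels were not compared by a test.

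**Figure D1:**
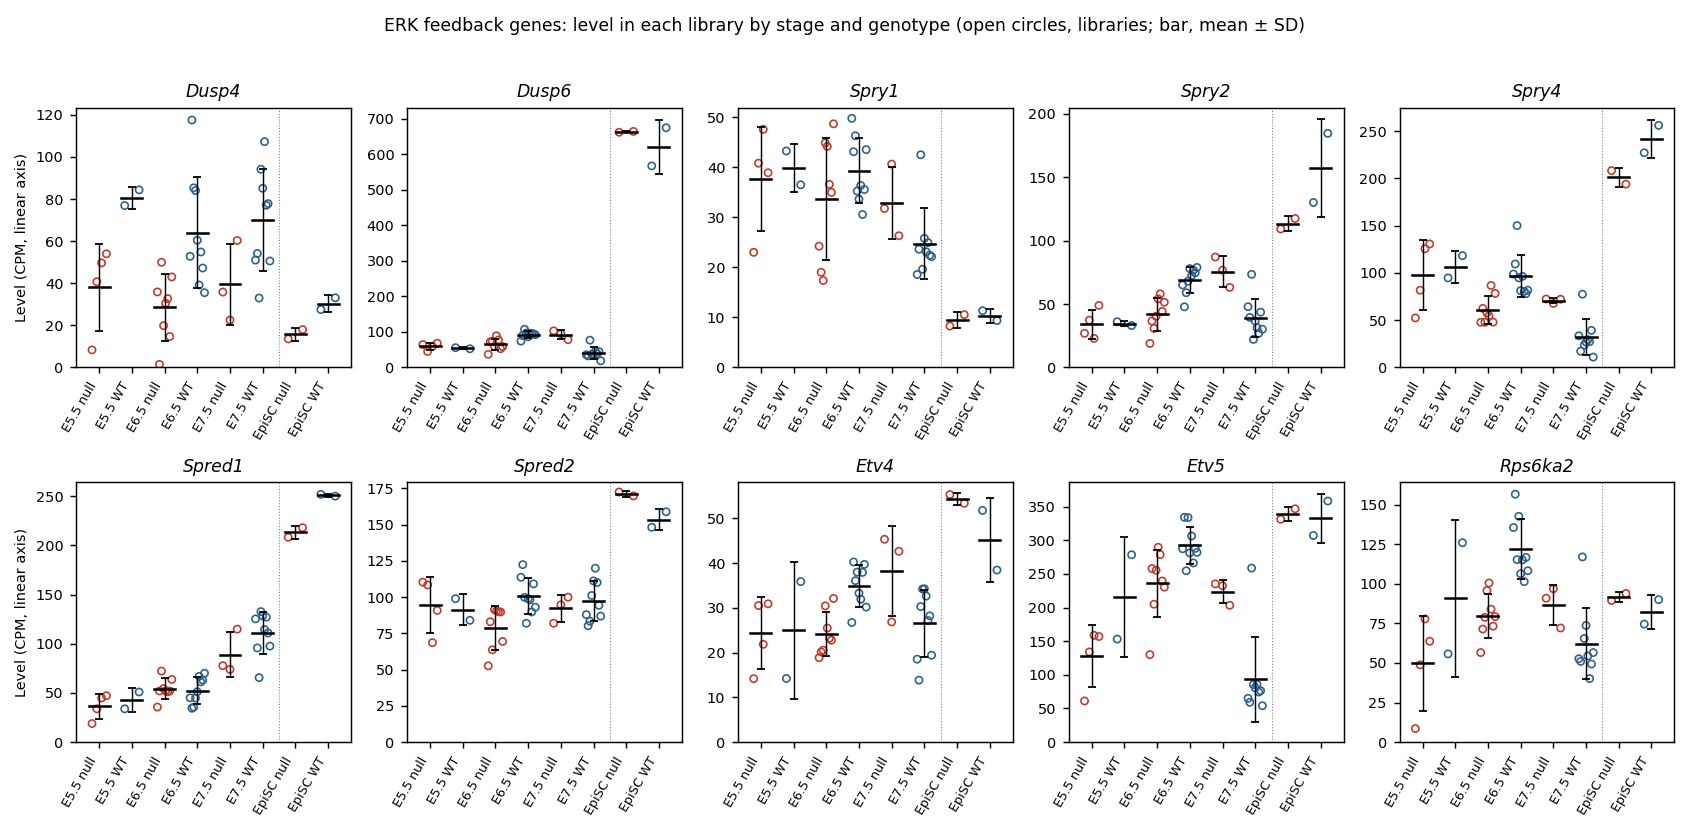
Level (CPM, linear axis from 0) of the 10 ERK feedback genes in each library, by stage and genotype. Open circles are libraries (red, *Stat3* null; blue, WT), bars the mean ± SD, and the dotted line parts the EpiSC libraries. *Dusp6* in the 3 E7.5 null epiblasts (78.0 to 103 CPM) lies above all 9 WT epiblasts (18.6 to 76.7 CPM), while *Dusp4* has the lower mean in the null group of every setting.

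At E5.5 no member passed the test between null and WT epiblasts. *Dusp4* was at 8.35, 40.7, 49.6 and 54.0 CPM in the 4 null epiblasts and at 76.9 and 84.4 CPM in the 2 WT. It was the only member whose groups did not overlap, where 7.12% of all genes did not overlap in that direction. Its log2 fold change was -1.08 (SE 0.64), and -0.75 without E5.5 null 1, the library low in *Pou5f1*. *Etv5* was at 61.1, 134, 159 and 157 CPM in null and at 153 and 278 CPM in WT epiblasts (log2 fold change -0.76, SE 0.41). *Rps6ka2* ranged from 8.58 to 77.8 CPM in null epiblasts, against 55.7 and 126 CPM in WT. The other 7 members had log2 fold changes between -0.23 and 0.12. The adjusted p was 0.999 for each of the 10 (quasi-likelihood test of edgeR, Benjamini-Hochberg adjusted). A gene was called where its adjusted p was below 0.05 and its log2 fold change above 1 or below -1. The calls took 0 of 10 members and 0% of 18690 genes. No member had an unadjusted p under 0.05, against 2.5% of all genes, and DESeq2 and voom also called no member. E5.5 null 1 had the lowest level of the 4 null epiblasts for 7 of the 10 genes. Its extraembryonic ectoderm markers summed to 2420 CPM against 368 to 1084 CPM in the other 5 epiblasts of the stage, and its visceral endoderm markers to 27.7 CPM against 5325 to 10801 CPM. Without this library the log2 fold change was -0.53 for *Etv5* and -0.52 for *Rps6ka2*. In null epiblasts all 10 extraembryonic ectoderm markers were higher (median 1.11) and all 8 epiblast markers lower (median -0.54), none called, and their part in these values was not tested.

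At E6.5 the null epiblasts had less RNA of 9 of the 10 genes, with a median log2 fold change of -0.51 against -0.01 over all genes tested, of which 48.8% were higher. Only *Dusp4* had a log2 fold change beyond -1. The calls took 0 of 10 members and 0% of 17095 genes, and DESeq2 and voom called no member either. Over all genes, 8.27% had an unadjusted p under 0.05.

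Among the phosphatases, *Dusp4* was at 1.45 (lowest), 31.6 (median) and 49.98 (highest) CPM in null epiblasts and at 35.5, 54.9 and 118 CPM in WT. The groups overlapped, 5 of the 8 null epiblasts lying below every WT, and the log2 fold change was -1.15 (SE 0.43). *Dusp6* ran from 36.8 through a median of 65.6 to 89.0 CPM in null and from 74.1 through 94.2 to 107 CPM in WT epiblasts. Of the 8 null epiblasts, 6 were below every WT (log2 fold change -0.50, SE 0.13).

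Of the Sprouty genes, *Spry2* had 18.9, 42.3 and 58.0 CPM (lowest, median, highest) in null and 47.8, 72.4 and 78.9 CPM in WT epiblasts. All WT epiblasts but WT 2 were above every null, with a log2 fold change of -0.72 (SE 0.17). *Spry4* had 47.8, 56.2 and 86.8 CPM in null against 78.2, 94.8 and 150.1 CPM in WT, and 6 of 8 null epiblasts lay below every WT (log2 fold change -0.67, SE 0.15). *Spry1* overlapped widely, with medians of 35.8 and 36.4 CPM and a log2 fold change of -0.22 (SE 0.19). The Spred genes were split, with *Spred2* at -0.35 (SE 0.11) and *Spred1*, the only member with a positive sign, at 0.05 (SE 0.16).

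The ETS genes were lower in null epiblasts by a log2 fold change of -0.52 (SE 0.13) for *Etv4* and -0.30 (SE 0.11) for *Etv5*. *Etv4* had 18.9, 23.0 and 32.1 CPM in null against 26.7, 36.1 and 40.3 CPM in WT epiblasts, 6 of 8 null epiblasts being below every WT. *Rps6ka2* was the only gene of the 10 with groups apart. It ran from 56.5 to 100.5 CPM in null and from 101.3 to 157 CPM in WT epiblasts, with a gap under 1 CPM between the nearest libraries, and a log2 fold change of -0.60 (SE 0.11). Over all genes, 0.0585% had null values below every WT value.

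E6.5 null 1, the library with most extraembryonic ectoderm marker RNA, had the lowest null level of 8 of the 10 genes. Without it the same 9 genes kept a negative sign, between -0.15 for *Spry1* and -1.21 for *Dusp4*. Within the 3 null and 3 WT epiblasts over 40000000 counts, 9 genes were lower in null, by -0.61 (*Etv5*) to -2.55 (*Dusp4*) in mean log2 CPM, and *Spred1* was higher, by 0.43. Of these libraries, E6.5 null 2 and 3 had only 15531 and 15171 genes detected, against 17961 to 22310 in the other libraries of E6.5. E6.5 null 2 also had the lowest *Dusp4* level, 1.45 CPM. The part of the lower gene detection in these differences was not tested. Among the 5 null and 6 WT epiblasts under that depth, *Spry1* was higher in null, by 0.22 in mean log2 CPM, and the other 9 were lower, by -0.11 to -0.97. The 9 genes lower at the greater depth all differed less here, as with *Rps6ka2* (-0.98 and -0.41), *Etv5* (-0.61 and -0.18) and *Spred2* (-0.77 and -0.14). Visceral endoderm markers (12 genes, all 12 higher in null, none called) summed to 108 to 6155 CPM in null and 82.1 to 5279 CPM in WT epiblasts, with a median log2 fold change of 1.17. Of 9 extraembryonic ectoderm markers tested, 8 were higher in null, with a median of 3.21, and 7 of 8 epiblast markers were lower, with a median of -0.22, none of them called. The part of these markers in the lower levels of the ERK feedback genes was not tested.

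At E7.5 the direction was the opposite for most of the set: 7 genes were higher and 3 lower in null epiblasts, with a median log2 fold change of 0.53 against -0.02 over all genes, of which 48.2% were higher. *Dusp6*, *Spry2*, *Spry4* and *Etv5* had the widest differences. The calls took 1 of 10 members, *Dusp6*, where 0.0813% of 19680 genes were called higher and 1.09% were called lower. The genes were selected on this contrast.

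*Dusp6* was at 103, 94.8 and 78.0 CPM in the 3 null epiblasts, against 18.6 (lowest), 37.5 (median) and 76.7 (highest) CPM in the 9 WT. The groups did not overlap, as for 1.68% of all genes in that direction, and the null mean was 2.26 times the WT mean (log2 fold change 1.20, SE 0.27). It lost the call when any 1 of the 12 epiblasts other than E7.5 WT 3 and E7.5 WT 9 was left out, at log2 fold changes of 1.12 to 1.31. *Dusp4* went the other way, at 35.8, 22.5 and 60.3 CPM in null against a WT range of 33.0 to 107 CPM (log2 fold change -0.80, SE 0.36).

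*Spry2* was at 87.1, 76.7 and 63.1 CPM in null epiblasts and at 22.1, 36.6 and 73.4 CPM (lowest, median, highest) in WT. Its log2 fold change was 0.98 (SE 0.27), just under the threshold. Its adjusted p also missed the call, as did those of *Spry4* and *Etv5*, whose log2 fold changes were over 1. *Spry4* was almost level among the null epiblasts, at 72.4, 67.7 and 72.2 CPM, and ran from 11 through a median of 27.3 to 77.6 CPM in WT (log2 fold change 1.18, SE 0.41). In both genes all WT epiblasts but WT 3 were below every null. *Spry1* gave 0.44 (SE 0.21), *Spred2* -0.05 (SE 0.12) and *Spred1* -0.29 (SE 0.18).

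*Etv5* was at 235, 232 and 203 CPM in null epiblasts. The 9 WT epiblasts had a median of 76.3 CPM and ran from 54.0 to 85.8 CPM but for WT 3, which was at 259 CPM, above every null. The log2 fold change was 1.28 (SE 0.41), and 1.65 without WT 3. *Etv4* was at 45.3, 26.9 and 42.7 CPM against 13.8 to 34.3 CPM in WT, a log2 fold change of 0.56 (SE 0.24). *Etv4* is 0.830 Mb from *Stat3* on chromosome 11 (101769742 to 101785371, against 100885098 to 100939540 in GRCm38), so it is inherited with the null allele in most crosses. The part of this linkage in the *Etv4* values was not tested. *Rps6ka2* was at 90.9, 96.9 and 72.1 CPM in null, and 7 of the 9 WT epiblasts were below all of these (log2 fold change 0.50, SE 0.25).

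E7.5 WT 3 had the highest WT level of 6 of the 10 genes. Leaving it out made 4 members pass the call, *Dusp6* (1.38), *Spry2* (1.15), *Spry4* (1.47) and *Etv5* (1.65). Marker levels moved with genotype at this stage. The 8 epiblast markers summed to 1225 to 1771 CPM in null and 416 to 1756 CPM in WT epiblasts, WT 3 being the WT maximum. The 12 visceral endoderm markers summed to 130 to 355 CPM in null against 510 to 4157 CPM in WT, WT 3 being the WT minimum. The 11 mesoderm and primitive streak markers summed to 221 to 561 CPM in null and 135 to 704 CPM in WT. The 10 extraembryonic ectoderm markers summed to 351 to 440 CPM in null and 83.2 to 312 CPM in WT, but *Eomes*, also a gene of the primitive streak, made up most of the null sum, at 387 ± 41.4 CPM in null (SD, n = 3) against 33.3 ± 65.4 CPM in WT (SD, n = 9). Of the 8 tested markers of that list, the other 7 were lower in null, the median over the 8 was -1.38, and none was called. The part of these tissues in the differences of the ERK feedback genes was not tested.

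**Figure D2:**
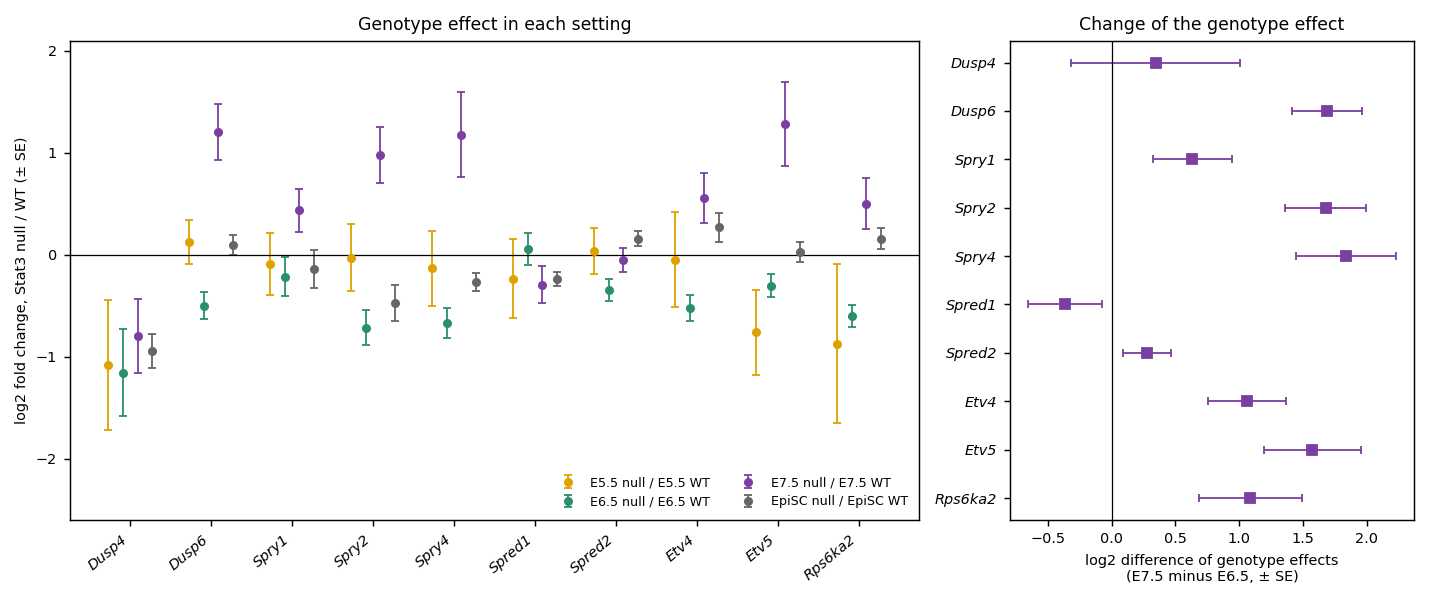
Left, log2 fold change of *Stat3* null over WT (± SE) for each gene in the 3 epiblast stages and in EpiSCs. Right, difference of the genotype effects (E7.5 minus E6.5, log2, ± SE). *Dusp6*, *Spry1*, *Spry2*, *Spry4*, *Etv4*, *Etv5* and *Rps6ka2* lie below 0 at E6.5 and above 0 at E7.5, whereas *Dusp4* lies below 0 in all 4 settings.

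The change of the genotype effect from E6.5 to E7.5, fitted over all 35 epiblasts, was positive for 9 of the 10 genes, with a median of 1.07 on the log2 scale against -0.02 over all genes, of which 48.6% were positive. It was over 1 for 6 genes, where 13.8% of 24126 genes were over 1. *Spry4* changed by 1.83 (SE 0.39), *Dusp6* by 1.69 (SE 0.27), *Spry2* by 1.68 (SE 0.32), *Etv5* by 1.57 (SE 0.38), *Rps6ka2* by 1.09 (SE 0.40) and *Etv4* by 1.06 (SE 0.31). Of these, *Dusp6*, *Spry2* and *Spry4* passed the threshold, as did 0.0746% of all genes with a positive sign, and this contrast too was used to select the genes. *Spry1* (0.63, SE 0.31), *Dusp4* (0.34, SE 0.66), *Spred2* (0.28, SE 0.19) and *Spred1* (-0.36, SE 0.29) lay nearer to 0.

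These 3 calls rested on few null epiblasts. Without E7.5 null 1 no member was called, and without E7.5 null 2 only *Dusp6* was. *Spry4* also lost its call without E6.5 null 1, 3 or 4, E6.5 WT 2, E7.5 null 3, or E7.5 WT 4, 5, 6 or 7, and *Etv5* gained one without E6.5 WT 3 or E7.5 WT 3. The log2 change stayed between 1.59 and 1.86 for *Dusp6*, 1.57 and 1.84 for *Spry2*, and 1.72 and 2.12 for *Spry4* with any 1 library left out.

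**Figure D3:**
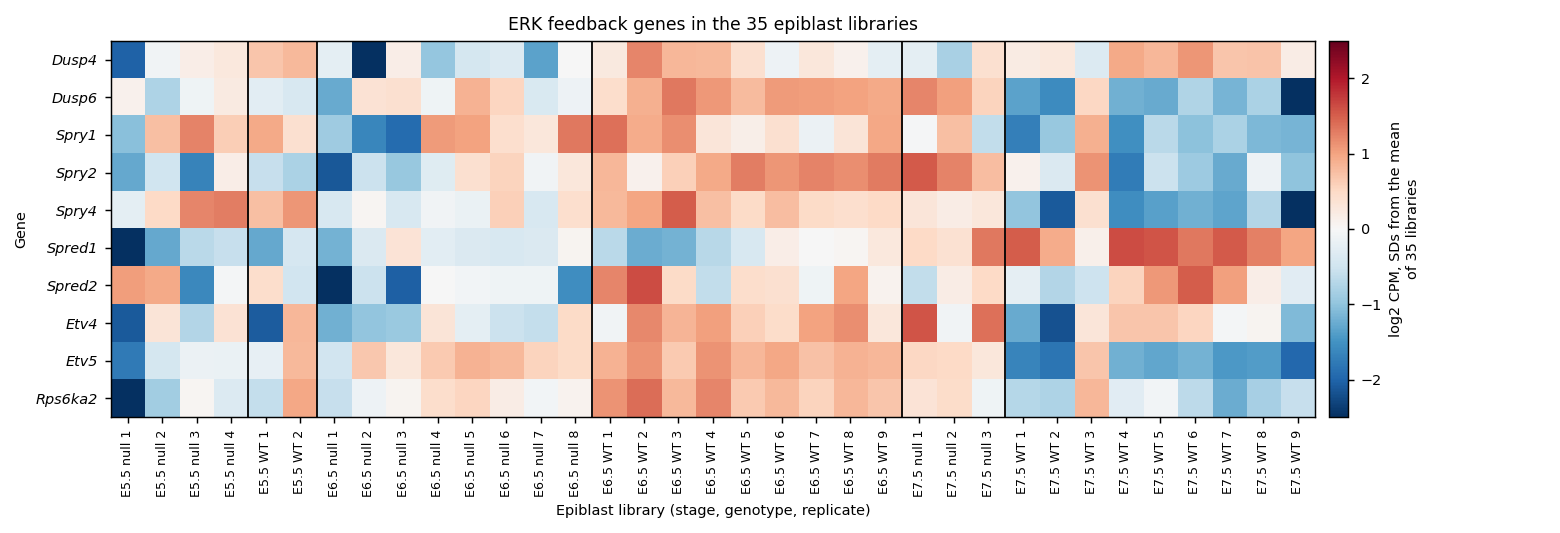
Log2 CPM of the 10 genes (rows) in the 35 epiblast libraries (columns, parted by stage and genotype), as SDs from each gene's mean over the libraries; red is above and blue below the mean. Most E7.5 WT columns are blue for *Dusp6*, *Spry2*, *Spry4* and *Etv5*, apart from E7.5 WT 3, and E5.5 null 1 and E6.5 null 1 are blue for most genes.

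In WT epiblasts between E5.5 and E6.5 the early change was in *Spry2* and *Dusp6*. *Spry2* was at 36.0 and 33.0 CPM at E5.5 and at 47.8 to 78.9 CPM at E6.5, a log2 fold change of 1.02 (SE 0.19), and all 9 E6.5 epiblasts were above both E5.5 epiblasts. *Dusp6* was at 55.5 and 52.6 CPM and then at 74.1 to 107 CPM (log2 fold change 0.79, SE 0.13), also without overlap, as for 8.34% of all genes in that direction. The calls took 1 of 10 members, *Spry2*, where 2.52% of 20763 genes were called higher. Its log2 fold change lay close to 1 and was outside the call in 7 of 8 other settings and without any 1 library except E6.5 WT 2. The other 8 members had log2 fold changes between -0.32 and 0.49. Visceral endoderm markers summed to 5325 and 6563 CPM in the 2 E5.5 WT epiblasts, against a median of 198 CPM at E6.5, and their part in these values was not tested.

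From E6.5 to E7.5 WT epiblasts had lower levels of most of the set at the later stage. The 9 WT epiblasts of each stage gave log2 fold changes of -1.67 (SE 0.25) for *Etv5*, -1.62 (SE 0.27) for *Spry4* and -1.20 (SE 0.17) for *Dusp6*, all 3 called, where 3.09% of 17191 genes were called lower. *Spry4* alone had no overlap, every E7.5 WT epiblast (11 to 77.6 CPM) being below every E6.5 WT (78.2 to 150.1 CPM), though E7.5 WT 3 was within 1 CPM, and 0.989% of all genes had no overlap in that direction. *Rps6ka2* (-0.99, SE 0.16), *Spry2* (-0.84, SE 0.18), *Spry1* (-0.69, SE 0.14) and *Etv4* (-0.41, SE 0.15) were lower by less than the threshold. *Spred2* (-0.07, SE 0.09) and *Dusp4* (0.11, SE 0.24) were close to level. *Spred1* was higher, from a median of 51.2 CPM at E6.5 to 114 CPM at E7.5, with a log2 fold change of 1.06 (SE 0.15), the only member of the 5.74% of genes called higher. It was just outside the call without E6.5 WT 2 (0.99), while *Spry2* entered it without E7.5 WT 3 (-1.01). *Rps6ka2*, close to the threshold, was called in 6 of the 18 fits that left out 1 library (without E6.5 WT 5, 7, 8 or 9 or E7.5 WT 3 or 5), at up to -1.15 without E7.5 WT 3.

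The means of null epiblasts at E7.5 stood nearer to E6.5 WT than to E7.5 WT for *Dusp6* (91.9 ± 12.7 CPM in E7.5 null, 92.4 ± 8.99 in E6.5 WT and 40.6 ± 15.6 in E7.5 WT, SD), *Spry2* (75.6 ± 12, 68.9 ± 10.3 and 39 ± 15.2 CPM), *Etv5* (224 ± 17.6, 293 ± 27.5 and 93.3 ± 63.0 CPM) and *Spry4* (70.8 ± 2.67, 96.8 ± 22.6 and 31.7 ± 19.1 CPM). For *Etv5* and *Spry4* all 3 null epiblasts were nonetheless below every E6.5 WT. *Rps6ka2* went the other way: its mean of 86.6 ± 12.9 CPM in E7.5 null was nearer to E7.5 WT (62.2 ± 22.7 CPM) than to E6.5 WT (122 ± 18.7 CPM), and all 3 null epiblasts were below every E6.5 WT. *Spred1* did not share this order: E7.5 null epiblasts, at 88.8 ± 22.6 CPM, were all above every E6.5 WT (52.4 ± 13.4 CPM) and overlapped E7.5 WT (111 ± 21.6 CPM). *Dusp4* was at 39.5 ± 19.2 CPM in E7.5 null, below its means in E6.5 WT (64.1 CPM) and E7.5 WT (70.0 CPM). *Spred2*, at 92.2 ± 9.24 CPM, was also below both (101 and 97.3 CPM). *Spry1* (32.9 ± 7.23, against 39.4 and 24.8 CPM) and *Etv4* (38.3 ± 9.99, against 34.9 and 26.5 CPM) were nearer to E6.5 WT. These means share the WT libraries of the genotype contrasts and were not tested.

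The rest of the pathway, from lists of ligands, receptors, adaptors, kinases and response genes, gave the setting for the WT stage change. Of 7 FGF ligands tested between E6.5 and E7.5 WT, 4 fell (*Fgf4*, *Fgf5*, *Fgf8*, *Fgf15*) and 1 rose (*Fgf3*). *Fgf15* fell by 1.41 on the log2 scale (SE 0.20, adjusted p = 5.44e-05) with no overlap between stages. *Fgf5*, a marker of the formative epiblast, was at 113 ± 12.9 CPM at E6.5 (SD, n = 9) and 22.5 ± 51.0 CPM at E7.5 (SD, n = 9), where the lowest epiblast had 2.68 and the highest 158 CPM. Of 7 FGF receptors and receptor partners 4 rose and none fell, among them *Fgfr1* (log2 fold change 1.21, SE 0.14, adjusted p = 1.31e-05) and *Fgfr2* (3.67, SE 0.39, adjusted p = 7.86e-06). The central kinases hardly differed, since of 11 Ras, Raf, MEK and ERK genes and scaffolds only *Ksr1* was called (1.42, SE 0.26, adjusted p = 0.000403). Among 7 other inhibitors *Il17rd*, which encodes the FGF receptor inhibitor Sef, fell by 1.47 on the log2 scale (SE 0.21, adjusted p = 8.69e-05) with no overlap. Of the members' relatives, the RSK gene *Rps6ka3* (1.06, SE 0.17, edgeR adjusted p = 0.000145) and the ETS gene *Elk3* (1.44, SE 0.34, edgeR adjusted p = 0.0036) were called higher. The ETS gene *Etv1* (-1.27, SE 0.27, edgeR adjusted p = 0.00168) and *Spred3* (-1.11, SE 0.24, edgeR adjusted p = 0.00215) were called lower. The immediate response gene *Myc* fell by 1.51 (SE 0.23, adjusted p = 9.80e-05), whereas *Phlda1* rose by 2.62 (SE 0.50, adjusted p = 0.000813), all from edgeR's quasi-likelihood test. Markers moved in the same comparison. Of 11 mesoderm and primitive streak markers 8 were higher (5 called) and 3 lower (1 called). All 12 visceral endoderm markers were higher, with a median log2 fold change of 1.03, 5 of them called. Of 8 epiblast markers 7 were lower, 5 of them called. Of 8 tested extraembryonic ectoderm markers 5 were higher (3 called) and 3 lower (1 called). Their part in the levels of the ERK feedback genes was not tested.

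**Figure D4:**
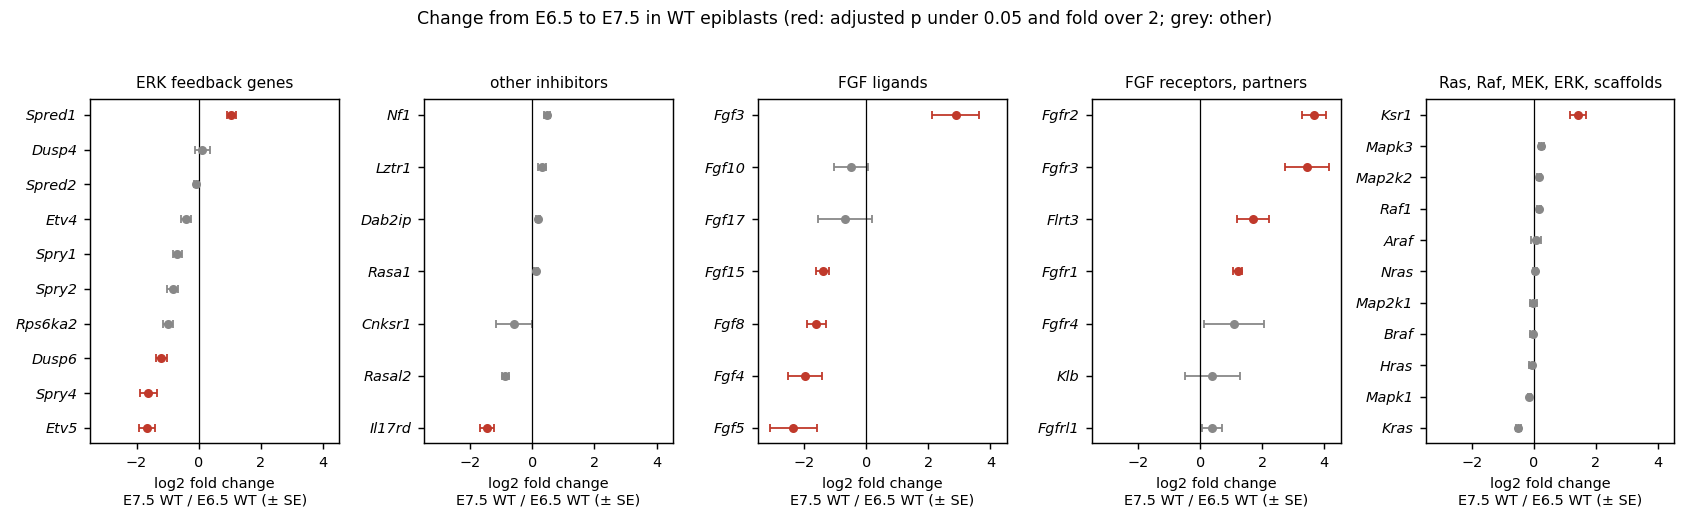
Log2 fold change (± SE) from E6.5 to E7.5 WT epiblasts for the ERK feedback genes and 4 other groups of pathway genes. Red points were called, and grey points do not. *Etv5*, *Spry4* and *Dusp6* lie with *Il17rd* and 4 FGF ligands on the lower side, the receptors lie on the higher side, and most Ras, Raf, MEK and ERK genes lie near 0.

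Among the close relatives of the members, *Dusp1*, another dual-specificity phosphatase, was called higher in E7.5 null epiblasts, at 19.7 ± 4.21 CPM (SD, n = 3) against 9.84 ± 2.95 CPM in WT (SD, n = 9), a log2 fold change of 1.03 (SE 0.25, edgeR adjusted p = 0.0483). *Spred3*, the third Spred gene, had a log2 fold change of 1.22 (SE 0.35, edgeR adjusted p = 0.0820) there, and *Il17rd* 1.06 (SE 0.35, edgeR adjusted p = 0.116), neither past the test. The FGF receptor partner *Flrt3* (-1.89, SE 0.31, edgeR adjusted p = 0.0183) and *Fgfr4* (-4.19, SE 0.85, edgeR adjusted p = 0.0324) were lower in null at E7.5 with no overlap. The adaptor *Gab1* (-1.35, SE 0.27, edgeR adjusted p = 0.0330) and *Phlda1* (-2.38, SE 0.55, edgeR adjusted p = 0.0473) were lower with overlap. At this stage the 12 visceral endoderm markers summed to 130 to 355 CPM in null against 510 to 4157 CPM in WT. The part of these and the other markers in the values of the pathway genes was not tested. Of the 11 Ras, Raf, MEK and ERK genes and scaffolds and the 8 FGF ligands none was called there. *Spred3* and *Il17rd* were singled out for this stage after their values were seen. No gene of these lists outside the 10 members was called for the change of the genotype effect.

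Across the 35 epiblasts the members did not all vary together. The Pearson correlation of a gene's log2 CPM with the mean of the other 9 was 0.72 for *Rps6ka2* and *Etv4*, 0.70 for *Spry2*, 0.69 for *Etv5* and 0.66 for *Dusp6*. *Spry1* and *Spry4* each gave 0.55. *Dusp4* (0.17), *Spred2* (0.16) and *Spred1* (-0.21) did not follow the others. After the group means were taken out, the value was 0.80 for *Etv5*, 0.67 for *Spry4*, 0.65 for *Rps6ka2* and 0.62 for *Etv4*, and 0.18, 0.04 and 0.15 for *Dusp4*, *Spred2* and *Spred1*. The genes with the pattern most like the mean of the 10 members, of 10937 genes at a mean of 5 CPM or more, were *Acsl4* (r = 0.85), *Sertad4* (0.81), *Rbpms* (0.79), *Plekha1* (0.78), *Rasal2* (0.78) and *Whrn* (0.78). These correlations are descriptions over 35 libraries that share stage, genotype and depth groups.

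In EpiSCs, libraries that had no part in the choice of genes, no member passed the test between 2 null and 2 WT lines. *Dusp4* was at 13.5 and 18 CPM in null and at 27.5 and 33.1 CPM in WT lines, without overlap, where 20.8% of 20736 genes did not overlap in that direction. Its log2 fold change was -0.94 (SE 0.17, edgeR adjusted p = 0.151). *Dusp6* was at 661 and 664 CPM in null and at 567 and 674 CPM in WT lines (log2 fold change 0.09, SE 0.10, edgeR adjusted p = 0.872). *Spry2* was at 109 and 117 CPM against 130.1 and 185 CPM (log2 fold change -0.47, SE 0.17, edgeR adjusted p = 0.517). *Spry4* was at 208 and 194 against 227 and 256 CPM (-0.26, SE 0.09, edgeR adjusted p = 0.421), and *Spred1* at 208 and 218 against 252 and 249.9 CPM (-0.24, SE 0.07, edgeR adjusted p = 0.363). *Etv5*, at 331 and 347 against 307 and 358 CPM, gave 0.03 (SE 0.09, edgeR adjusted p = 0.972), and *Etv4*, *Spred2*, *Rps6ka2* and *Spry1* gave between -0.14 and 0.27. Of the 10 genes 5 were higher and 5 lower, with a median of -0.06, and 48.1% of all genes were higher. The calls took 0 of 10 members and 0.106% of all genes, 4 members had an unadjusted p under 0.05 against 9.09% of all genes, and DESeq2 and voom called none. In the same comparison all 8 tested mesoderm and primitive streak markers (median -0.98) and all 9 tested visceral endoderm markers (median -0.75) were lower in null, none called. Their sums were 30.7 to 33.6 against 44.0 to 80.4 CPM and 7.97 to 8.57 against 11.7 to 26.7 CPM, and their part in the values of the members was not tested. With 2 lines per genotype, lines and genotype are told apart only by the spread of 4 libraries.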

How the data were processed

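RNA was sequenced from single epiblasts (SMARTer Stranded Total RNA kit v2 Pico) and from EpiSC lines (RNeasy, Ribo-Zero, NEBNext Ultra II). The authors deposited raw counts per gene, one table for epiblasts and one for EpiSCs, made from reads trimmed with Trim Galore, aligned to GRCm38 with HISAT2 and counted through StringTie. The annotation release is not given in the sources used here, and symbols and IDs come from the tables. Groups came from the labels, and every epiblast is a separate embryo.

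Counts were tested with edgeR 4.0.16 (R 4.3.3): trimmed mean of M values (TMM) scaling, filterByExpr by group (minimum count 10, minimum total 15), robust quasi-likelihood fits and Benjamini-Hochberg adjustment over all genes that passed. All 10 members passed in each comparison. Genes were called at an adjusted p below 0.05 and a log2 fold change above 1 or below -1. CPM uses TMM library sizes. SE is the log2 fold change over the square root of F. The study's methods used DESeq2, run here (1.42.0) as an alternative beside limma 3.58.1 voom with sample weights, RLE scaling, other filters, a joint fit, a replicate block and leaving out each library. In simulated counts with the E7.5 group sizes, 14 of 73 genes changed 2-fold, 50 of 64 changed 4-fold and 59 of 63 changed 8-fold were called among 18601 genes.

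The members and the gene lists were chosen with earlier results of these data known. From the pathway lists, at most the 6 called genes with the smallest p in a comparison were named by rule, as were the 6 genes with the most similar pattern. *Ksr1*, *Phlda1*, *Elk3*, *Etv1*, *Spred3* and the FGF ligands other than *Fgf15* in the E6.5 to E7.5 WT comparison were named after their values were seen. EpiSCs and epiblasts were fitted separately. Same-numbered libraries of different genotypes or stages deviated from their group means with correlations from -0.135 to 0.157. Between null and WT they were 0.0276 and 0.157 at E5.5, 0.0537 to 0.156 in 8 pairs at E6.5, and -0.135 to 0.00878 at E7.5. Differently numbered libraries were not compared.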

Additional observations from a re-analysis of the deposited data

Results flagged for a closer look

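In groups of 4 to 10 libraries, 7 of 40 tested sets of member levels had a library set apart from the rest by Dixon's criterion at 95%, where chance gives about 1 in 20 sets, 2 here. The sets are members measured in the same libraries and are not independent, so no excess is read from 7 against 2. E7.5 WT 3 was the library set apart in 6 of the 7. Its level was 76.7 CPM for *Dusp6* (next highest 45.3), 42.5 CPM for *Spry1* (25.8), 73.4 CPM for *Spry2* (47.9), 77.6 CPM for *Spry4* (39.2), 259 CPM for *Etv5* (85.8) and 117 CPM for *Rps6ka2* (73.7). The same library had the highest epiblast marker sum and the lowest visceral endoderm marker sum of the E7.5 WT group, and *Fgf5* at 158 CPM against 2.68 to 8.37 CPM in the other 8. The part of this in its member levels was not tested. The remaining case was *Spry4* in E6.5 WT 3, at 150.1 CPM with the next highest WT epiblast at 109 CPM.

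The genotype effect differed between E6.5 and E7.5 in the fit across all genes for *Dusp6* (1.69 on the log2 scale), *Spry2* (1.68) and *Spry4* (1.83). Since the genes were picked with this contrast known, these values are a description.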

How the results depend on the processing

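For E7.5 null against WT, where 1 member was called, DESeq2 called 2 (*Dusp6*, *Etv5*), voom 5 (*Dusp4*, *Dusp6*, *Spry2*, *Spry4*, *Etv5*), and a fit with no filter or with the replicate block 0. For the change of genotype effect, where 3 were called, DESeq2, voom, the 29 libraries of E6.5 and E7.5 alone and the replicate block each called 5. For WT E6.5 against E5.5, where *Spry2* alone was called, DESeq2, RLE scaling, no filter, a stricter filter (mean count 50), removal of genes that took over 1% of counts, the fit of all 35 libraries and the replicate block called 0. Leaving out 1 library gave 0 to 4 calls at E7.5, 0 to 4 for the change of genotype effect and 0 to 2 for WT E6.5 against E5.5, the 2 being *Etv4* and *Rps6ka2* without E5.5 WT 2. The causes were not tested.

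Signs changed in these cases. At E5.5 voom gave 0.074 for *Spry2* and 0.20 for *Etv4*, and the replicate block -0.017 for *Dusp6*. For WT E6.5 against E5.5 the replicate block gave 0.21 for *Spry1* and -0.0867 for *Spred1*. With 1 library left out, E5.5 log2 fold changes ran from -0.22 to 0.084 for *Spry1*, -0.25 to 0.13 for *Spry2*, -0.30 to 0.077 for *Spry4*, -0.50 to 0.096 for *Spred1*, -0.066 to 0.18 for *Spred2* and -0.56 to 0.78 for *Etv4*. Those of WT E6.5 against E5.5 ran from -0.15 to 0.074 for *Spry1*, -0.32 to 0.020 for *Spry4*, -0.072 to 1.29 for *Etv4* and -0.081 to 1.12 for *Rps6ka2*. In EpiSCs they ran from -0.025 to 0.23 for *Dusp6*, -0.32 to 0.039 for *Spry1* and -0.080 to 0.14 for *Etv5*.

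Whether the replicate numbers pair libraries was not tested against other pairings, and in EpiSCs no paired analysis was possible because the lines share no numbers. Where a group was left with 1 library, that library was assumed to vary like the others. Power at the E5.5 group sizes was not simulated.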

Other observations

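Other genes of the ERK pathway differed between E5.5 and E6.5 WT epiblasts, as tested with edgeR over all genes. *Ccnd1*, which encodes cyclin D1, rose from 54.0 ± 21.8 CPM (SD, n = 2) to 173 ± 32.4 CPM (SD, n = 9), a log2 fold change of 1.70 (SE 0.27, edgeR adjusted p = 0.00280), with no overlap. *Etv1*, the third member of the ETS subfamily of *Etv4* and *Etv5*, rose by 1.35 (SE 0.27, edgeR adjusted p = 0.00913) and was also without overlap. The AP-1 gene *Fosl1* fell by 2.83 (SE 0.52, edgeR adjusted p = 0.00557) and the ETS gene *Ets1* fell by 2.98 (SE 0.72, edgeR adjusted p = 0.0228), both without overlap. *Ets2* fell by 1.39 (SE 0.31, edgeR adjusted p = 0.0140) and *Fgfr2* by 3.51 (SE 0.73, edgeR adjusted p = 0.0149), both with overlap, since *Fgfr2* was at 6.56 CPM in one E5.5 epiblast and 179 CPM in the other. In the same comparison all 9 tested extraembryonic ectoderm markers were lower at E6.5 (median log2 fold change -3.98), 3 of them called. Of 12 visceral endoderm markers 11 were lower (median over the 12, -2.32), 1 of them called. The part of these tissues in the values was not tested.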
